A study of Mus musculus with 9 samples.

Results

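Acod1, also named Irg1, and the genes Kctd12 and Mycbp2 that flank it on mouse chromosome 14 were followed through 9 RNA sequencing libraries. They are 3 of the 22165 gene rows of the counts table, picked by Ensembl identifier with their values in these libraries already known, so their levels are given as a description and without a test. The cells were macrophages grown in culture from the bone marrow of C57BL/6N mice aged 6 to 16 weeks. All received lipopolysaccharide (LPS), an outer membrane component of Gram-negative bacteria that activates macrophages, for 24 h at 100 ng/mL. The labels name 3 groups of 3 libraries, namely wild type (WT), Irg1-/- (KO), and Irg1-/- with 1 mM itaconate added 4 h after LPS (KO + ITA). No library without LPS and no wild type library with itaconate is among the 9. Neither the deleted stretch of the knockout allele nor its breeding is given in the labels, and they leave unsaid whether replicates came from separate mice or cultures. The spread between replicates may therefore be technical. Throughout, a library is called by its label, and 4 of those labels go against the Acod1 reads described below.

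Acod1 encodes aconitate decarboxylase, a mitochondrial enzyme that diverts cis-aconitate from the citric acid cycle into itaconate. Resting macrophages make very little of its messenger RNA, and LPS or interferon induces it strongly through NF-κB and interferon-activated transcription factors. Kctd12 encodes an auxiliary subunit of GABA-B receptors, and Mycbp2 a very large ubiquitin ligase best known from axons. Neither has a known role in making itaconate.

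In the GENCODE M21 annotation of GRCm38, the assembly also called mm10, Acod1 occupies chromosome 14 positions 103046977 to 103056573 on the plus strand, with 5 exons in its longest coding transcript. Kctd12 lies 64.3 kb to its left on the minus strand (102976581 to 102982637) with 1 exon. It overlaps the long noncoding RNA Gm26778 on the opposite strand, and although the library protocol keeps the strand, the strand setting of the counting is not given in the sources used here, so reads of that pair may not be separated. Mycbp2 lies 56.8 kb to the right of Acod1 on the minus strand (103113411 to 103346814), with 85 exons in its longest coding transcript.

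Promoter sequences show how unlike the start sites of Acod1 and Kctd12 are, although both genes were high in the same libraries. RefSeq promoters on GRCm38.p6, from 250 bases before to 50 after the start, were matched for 2 of the 3 members, Acod1 at chr14:103046762-103047061 (plus strand) and Kctd12 at chr14:102982588-102982887 (minus strand). Both are printed 5′ to 3′, and capitals mark matches to 4 motifs searched on both strands.
Acod1: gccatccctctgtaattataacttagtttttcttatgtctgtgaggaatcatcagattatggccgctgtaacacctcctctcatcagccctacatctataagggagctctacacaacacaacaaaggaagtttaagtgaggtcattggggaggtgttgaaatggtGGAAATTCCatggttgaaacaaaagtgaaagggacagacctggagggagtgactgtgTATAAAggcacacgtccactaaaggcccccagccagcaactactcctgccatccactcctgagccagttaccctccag
Kctd12: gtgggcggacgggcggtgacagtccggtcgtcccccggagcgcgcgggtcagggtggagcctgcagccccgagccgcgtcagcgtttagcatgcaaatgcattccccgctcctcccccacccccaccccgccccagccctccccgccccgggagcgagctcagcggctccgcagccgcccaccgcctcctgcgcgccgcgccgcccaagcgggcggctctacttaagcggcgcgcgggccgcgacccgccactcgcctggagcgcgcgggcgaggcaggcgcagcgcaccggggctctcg
The first motif was TATAAA, a core promoter element. The second was GGANNNTCC, bound by NF-κB. The other 2 were TGANTCA, bound by AP-1, and TTCNNNGAA, the interferon-γ activated site. Acod1 had 1 match to the NF-κB letters, GGAAATTCC from 85 to 77 bases before the start, and 1 to TATAAA from 28 to 23 bases before it. Of 32851 promoters of this length, 8.62% held the NF-κB letters and 13.6% held TATAAA. The AP-1 and interferon-γ motifs, held by 7.81% and 8.3% of promoters, had no match in the Acod1 window. No motif bound by interferon regulatory factors was searched, so the window may hold other interferon-type letters. Kctd12 had no match to any of the 4, and its window was 78% G and C where that of Acod1 was 47%. Positions count from the RefSeq start, which for Acod1 (103047012) lies 35 bases inside the GENCODE gene given above, so the TATAAA match falls within that gene. For Kctd12 both annotations give the same start. A match is a description of letters and shows no binding.

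The libraries held 7361671 to 20430359 reads in genes, so that 3 reads were worth 0.147 to 0.407 CPM (reads per 1e6 gene reads). CPM are scaled by the trimmed mean of M-values (TMM), and levels are compared between libraries, not between genes. All 10 macrophage markers, among them Adgre1, Csf1r and Lyz2, were read in every library, with a summed level of 8880 to 11300 CPM in WT, 7860 to 8340 in KO and 4640 to 8980 in KO + ITA. The lowest sum, 4640 CPM, was that of KO + ITA replicate 3, the library with the most Acod1, and its part in the results was not tested. In such bulk samples fewer cells of a type and less RNA per cell cannot be told apart. Of 8 lymphocyte markers 4 (Cd3e, Cd2, Cd79a and Nkg7) had no read in any library, and the list summed to at most 1.48 CPM. Summed neutrophil markers were 236 to 252 CPM in WT, 163 to 214 in KO and 79.2 to 217 in KO + ITA. The 5 fibroblast markers summed to 185 to 270, 189 to 221 and 166 to 271 CPM. The 5 dendritic cell markers, of which only Ccr7 passed the filter on low counts, were near the floor. Their sum was 2.14, 2.17 and 2.43 CPM in replicate 3 of WT, KO and KO + ITA, and 0.937 to 1.85 CPM in the other libraries. Ccr7 alone gave 2.14, 1.97 and 2.43 CPM of the replicate 3 sums, so the other markers of the list did not share this pattern. In KO + ITA replicate 1, Ccr7 gave 0.923 of the 1.85 CPM. The 4 erythroid markers summed to at most 0.548 CPM.

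Acod1 was measured first, since it checks the genotype labels. The libraries labelled WT held 94, 117 and 31169 Acod1 reads (replicates 1, 2 and 3), or 11.3, 9.14 and 4170 CPM. Those labelled KO held 154, 170 and 44920 reads, or 7.53, 12.9 and 4420 CPM. Those labelled KO + ITA held 94, 8 and 60716 reads, or 8.68, 0.877 and 6420 CPM. In each group the library whose title carries replicate number 3 was high and the other 2 were low. Acod1 took 0.423%, 0.44% and 0.585% of all gene reads in the high libraries of WT, KO and KO + ITA and at most 0.00134% in any other library. The reads go against the label in WT replicates 1 and 2, which are low, and in KO replicate 3 and KO + ITA replicate 3, which are high. Reads here lie mostly near the 3′ end of a transcript, and whether the knockout allele keeps that end is not given in the sources used here.

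Because 1 library in each group carried nearly all reads, the group means hid the pattern. Acod1 averaged 1400 ± 2400 CPM in WT, 1480 ± 2550 in KO and 2140 ± 3700 in KO + ITA (SD, n = 3 each), and the order of these means lies within their spread. The fitted log2 fold change was 0.08 ± 2.35 (SE) for KO against WT, 0.53 ± 2.35 for KO + ITA against KO and 0.62 ± 2.36 for KO + ITA against WT. Leaving out WT replicate 3 turned the first value to 7.18 ± 3.22, and leaving out KO replicate 3 turned it to -7.07 ± 3.29. Leaving out KO replicate 3 gave 7.72 for KO + ITA against KO, and leaving out KO + ITA replicate 3 gave -8.24. For KO + ITA against WT the value was 7.71 without WT replicate 3 and -8.14 without KO + ITA replicate 3.

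The order of single libraries was resolved at this depth only in part. KO + ITA replicate 3 (exact 95% Poisson interval 6370 to 6470 CPM) lay above KO replicate 3 (4380 to 4460) and WT replicate 3 (4120 to 4220), and these intervals do not overlap. The step from WT replicate 3 to the next library, KO replicate 2, was 324-fold. From KO replicate 2 (11 to 14.9 CPM) down to KO replicate 1 (6.38 to 8.81 CPM) each library overlapped its neighbour in the order. KO + ITA replicate 2 lay apart from all of them, at 0.379 to 1.73 CPM. The intervals cover counting error only, since the protocols name no molecular identifier.

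The low Acod1 reads were also set beside the number that precedes the barcode in the description labels. That number is read here as the pool in which barcoded samples were processed, although the labels do not define it. Pool 1 holds 5 libraries, among them the high WT replicate 3, and its other 4 held 7.53 to 12.9 CPM, or 0.181% to 0.309% of the level in WT replicate 3. Pool 2 holds the high KO replicate 3 and KO + ITA replicate 1, which was at 0.196% of the level of the former. At 8.68 CPM, KO + ITA replicate 1 lay within the range of the low libraries of pool 1. Pool 3 holds KO + ITA replicate 2 alone, which had the 8 reads. Pool 4 holds KO + ITA replicate 3 alone. All 5 low libraries that share a pool with a high one thus lay at 0.181% to 0.309% of it by CPM, and at 0.209% to 0.545% by reads. The 1 low library that does not was at 0.877 CPM, on 8 reads. What part the pool has in these reads was not tested.

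**Figure D1:**
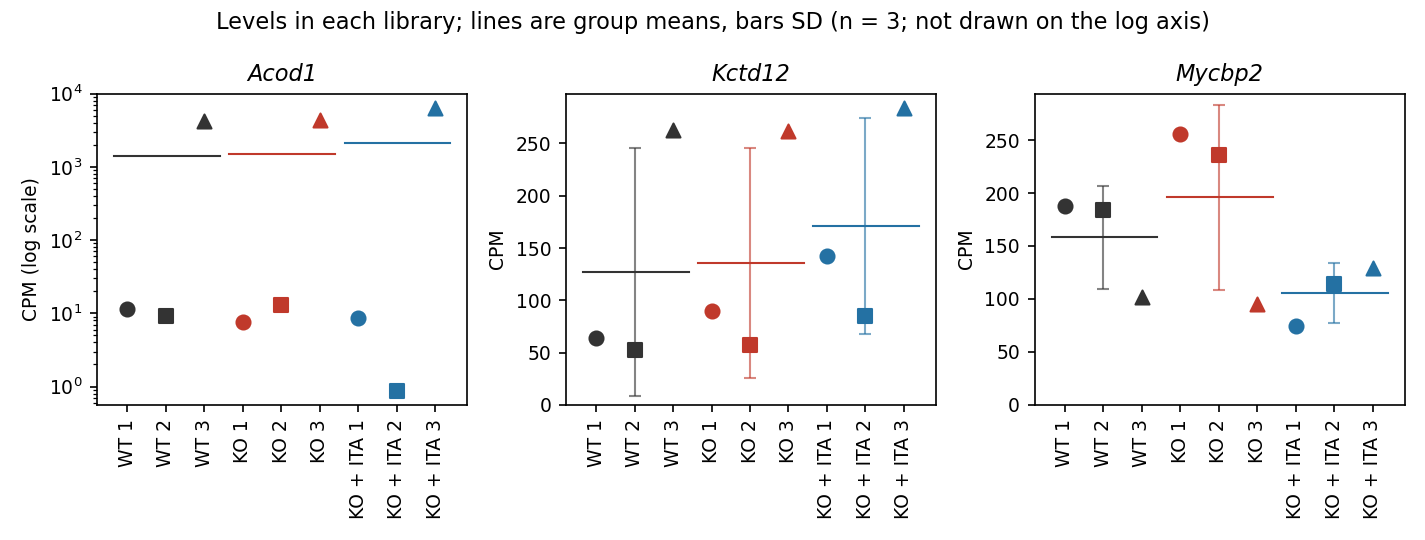
CPM of Acod1 (log axis), Kctd12 and Mycbp2 (linear axes from 0) in each of the 9 libraries, by label; circles, squares and triangles are replicates 1, 2 and 3, lines are group means and bars the SD (n = 3, not drawn for Acod1). The triangles are the 3 highest libraries for Acod1 (4170 to 6420 CPM) and for Kctd12 (262 to 284 CPM), and for Mycbp2 those of WT and KO lie below the other libraries of their group.

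Kctd12 was highest in the same 3 libraries as Acod1, which were the 3 highest for 117 of the 10781 tested genes, these 2 included. For the libraries of number 1 and of number 2 that count was 85 and 81. Its reads were 534, 672 and 1969 in WT, 1838, 760 and 2664 in KO, and 1542, 775 and 2687 in KO + ITA, for replicates 1, 2 and 3 of each. On the CPM scale WT stood at 64.1, 52.5 and 263, KO at 89.8, 57.5 and 262, and KO + ITA at 142, 85 and 284. The 3 libraries with number 3 lay within 262 to 284 CPM, and the counting intervals of WT replicate 3 (252 to 275) and KO replicate 3 (252 to 272) overlap those of each other. The other 6 spread from 52.5 to 142 CPM, and the step between the 2 sets, from KO replicate 3 to KO + ITA replicate 1, was 1.84-fold. Kctd12 thus differed far less than Acod1, with a highest library 5.41-fold above the lowest. Within the low-Acod1 libraries it was not level, since KO + ITA replicate 1 (142 CPM) lay above WT replicate 2 (52.5 CPM) with Acod1 at 8.68 and 9.14 CPM.

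By label, Kctd12 averaged 127 ± 119 CPM in WT, 136 ± 110 in KO and 171 ± 103 in KO + ITA (SD, n = 3), an order within the spread, and every pair of groups overlapped. The fitted log2 fold changes were 0.11 ± 0.63 (SE) for KO against WT, 0.32 ± 0.63 for KO + ITA against KO and 0.43 ± 0.63 for KO + ITA against WT. These changed with the same libraries as Acod1. For KO against WT the value was 1.23 ± 0.6 without WT replicate 3 and -0.75 ± 0.65 without KO replicate 3. For KO + ITA against KO it was 1.2 without KO replicate 3 and -0.26 without KO + ITA replicate 3, and for KO + ITA against WT it was 1.55 without WT replicate 3 and -0.14 without KO + ITA replicate 3.

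Mycbp2, on the other side of Acod1, had another pattern. Its reads were 1568, 2361 and 765 in WT, 5237, 3118 and 969 in KO, and 807, 1038 and 1224 in KO + ITA. On the CPM scale WT stood at 188, 184 and 102, KO at 256, 236 and 95.4, and KO + ITA at 74.5, 114 and 129. Replicates 1 and 2 of WT and KO were the 4 highest libraries, and the step from WT replicate 2 to the next, KO + ITA replicate 3, was 1.42-fold. In WT and KO the library with high Acod1 had the lowest Mycbp2, whereas in KO + ITA it had the highest of the 3. The 4 high libraries are all from pool 1, whose remaining library is WT replicate 3 at 102 CPM, and the 4 libraries of the other pools lay between 74.5 and 129 CPM.

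Mycbp2 averaged 158 ± 48.5 CPM in WT, 196 ± 87.5 in KO and 106 ± 28.3 in KO + ITA (SD, n = 3). The fitted log2 fold change was 0.31 ± 0.38 (SE) for KO against WT, -0.89 ± 0.38 for KO + ITA against KO and -0.58 ± 0.38 for KO + ITA against WT. Groups overlapped in each comparison. KO + ITA against KO ranged from -1.23 without KO replicate 3 to -0.65 without KO replicate 1, all of one sign. In a fit with pool as a term it was -0.36 ± 0.48, a design in which that comparison rests on the 2 libraries of pool 2. Within pool 1, KO against WT was 0.65 ± 0.3 over 2 and 3 libraries. The ratio of Mycbp2 to Kctd12 reads, which no scaling of the libraries can change, was 2.85 to 4.1 in replicates 1 and 2 of WT and KO, 0.364 to 0.456 in the 3 libraries with high Acod1, and 0.523 and 1.34 in KO + ITA replicates 1 and 2.

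**Figure D2:**
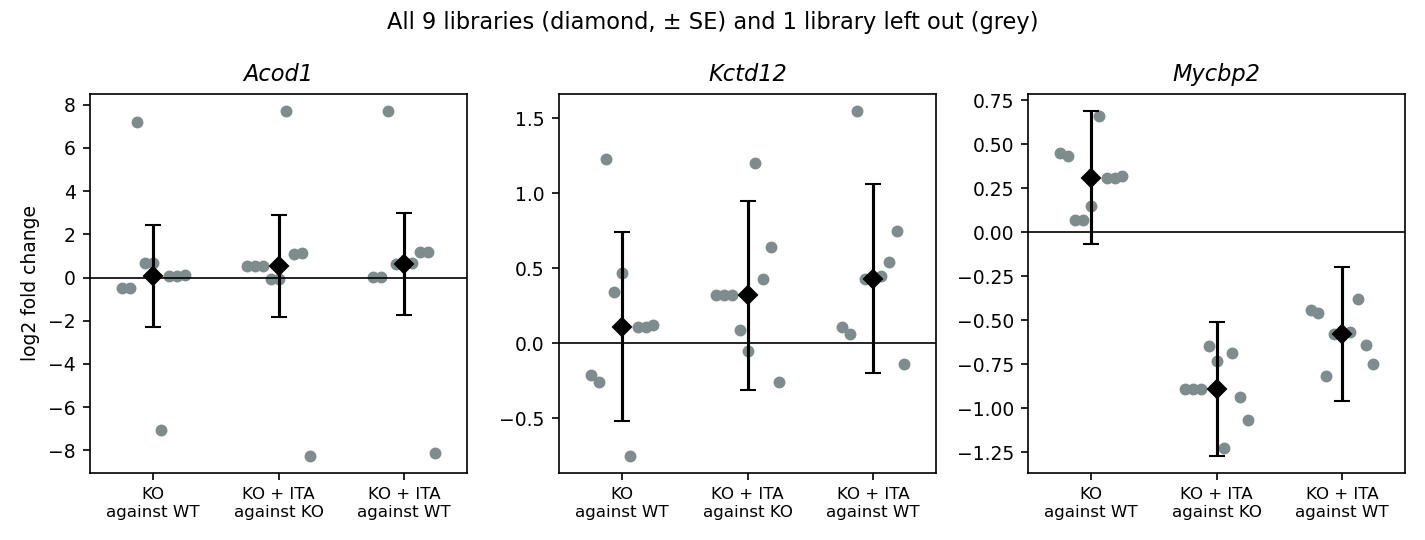
Fitted log2 fold changes of the members (y axis) in the 3 comparisons between labelled groups, from all 9 libraries (black diamond, bar ± SE) and with each library left out in turn (grey points). For Acod1 the values without 1 library run from -8.24 to 7.72, and for Mycbp2 in KO + ITA against KO they stay between -1.23 and -0.65.

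Leaving out the 4 libraries whose Acod1 reads go against their labels, a choice made after seeing the data and by Acod1 itself, keeps WT replicate 3, KO replicates 1 and 2, and KO + ITA replicates 1 and 2. The single WT library is then assumed to vary like the other groups. The log2 fold changes for KO against WT were -8.66 ± 0.71 for Acod1, -1.82 ± 0.44 for Kctd12 and 1.29 ± 0.46 for Mycbp2. For KO + ITA against KO they were -1.07 ± 0.54, 0.61 ± 0.37 and -1.42 ± 0.36 in the same order, and there the KO libraries are from pool 1 and the KO + ITA libraries from pools 2 and 3. For KO + ITA against WT they were -9.73 ± 0.75, -1.21 ± 0.44 and -0.13 ± 0.43. The Acod1 values follow from how the libraries were chosen. So do the signs of the Kctd12 values against WT, since Kctd12 was highest in the same libraries as Acod1 and only that of WT was kept. For Mycbp2, KO against WT set the single WT library (102 CPM) against KO replicates 1 and 2 (256 and 236 CPM), the highest of all 9. The Mycbp2 value for KO + ITA against KO was past the threshold of edgeR in this setting and in no other, and is given as a description, since the gene was picked with its values known.

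The wider neighbourhood was described with a list of 16 further genes of chromosome 14, of which 10 passed the filter on low counts. Klf5, Klf12, Lmo7, Scel, Slain1 and Pou4f1 did not, with at most 29 reads each over the 9 libraries. No gene of the list was called in any of the 3 comparisons by the quasi-likelihood test of edgeR, nor by DESeq2. The edgeR test called 0.0% of the 10781 genes tested in each direction of each comparison. DESeq2 called 0.00928% higher and 0.0% lower in KO against WT, 0.0371% higher and 0.0742% lower in KO + ITA against KO, and 0.121% higher and 0.0371% lower in KO + ITA against WT. When genes of low count were kept in the fit, edgeR called Spry2 in KO + ITA against WT, where it called 0.556% of genes higher and 0.0603% lower (0.362% and 0.174% in KO + ITA against KO). Without the 4 libraries named above it called Uchl3 in KO + ITA against KO, where it called 0.494% of genes higher and 1.42% lower (0.00882% and 0.00882% in KO against WT, 0.0% and 0.00882% in KO + ITA against WT). The 1 gene called lower in each of these last comparisons was Acod1, by which the libraries had been chosen. At an unadjusted p under 0.05 the list held 0, 3 and 1 genes in KO against WT, KO + ITA against KO and KO + ITA against WT, beside 3.13%, 8.3% and 8.89% of all genes tested. Its median log2 fold change was 0.13, 0.24 and 0.25 in these comparisons, beside -0.01, -0.02 and -0.01 over all genes tested.

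Ednrb, the endothelin receptor B gene at 758.1 kb, stood at 193, 210 and 206 CPM in WT, 343, 252 and 219 in KO and 198, 223 and 257 in KO + ITA. KO was higher than WT without overlap for Ednrb alone of the 10, a share to be read beside the 4.85% of all tested genes that were. Uchl3, a ubiquitin hydrolase gene at 1350.9 kb, was lower without overlap in KO + ITA (9.6, 9.43 and 3.07 CPM) than in KO (25.8, 22.9 and 10.8) and than in WT (12.5, 10.5 and 17.5), as were 5.29% and 7.25% of all tested genes. Its log2 fold change was -1.43 ± 0.44 against KO, and -0.17 ± 0.49 with pool as a term. Spry2, an inhibitor of receptor tyrosine kinase signalling at 2835.4 kb, stood at 11.9, 10.6 and 34.2 CPM in KO + ITA and at 4.56, 4.69 and 6.82 in WT. Commd6, at 1406.3 kb, stood at 22.2, 20.4 and 17.6 CPM in KO + ITA and at 15.1, 14.8 and 13.4 in WT. These 2 genes were higher in KO + ITA than in WT without overlap, as were 7.3% of all tested genes. With pool as a term the Spry2 difference was -0.6 ± 0.67 where the fit without it gave 1.82 ± 0.56. For Commd6 the difference was -0.11 ± 0.51 with pool as a term and 0.47 ± 0.3 without it. Tbc1d4, Rnf219, Rbm26 and Ndfip2 had log2 fold changes between -0.5 and 0.4 in all 3 comparisons.

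**Figure D3:**
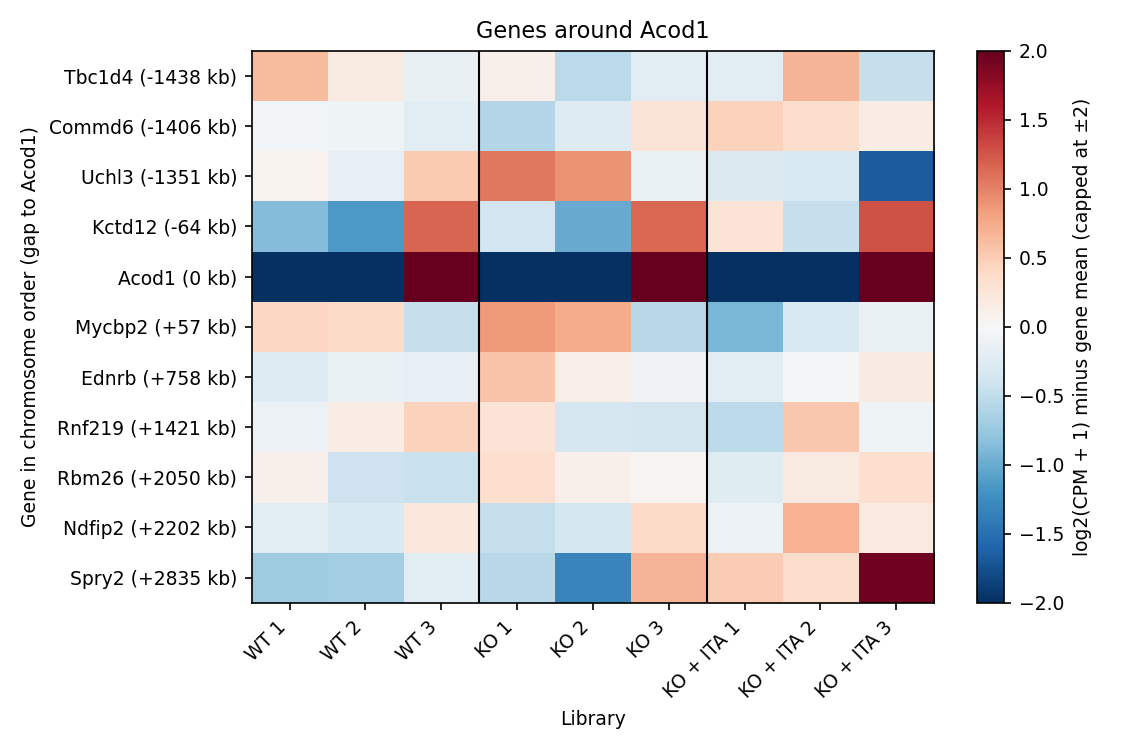
Of the tested genes of the region, 11 are shown in chromosome order (rows, with the gap to Acod1 in kb) across the 9 libraries (columns); colour is log2(CPM + 1) minus the mean of the gene, capped at 2 in each direction. Red in the replicate 3 column of each labelled group is shared by Acod1 and Kctd12. Ndfip2 also lies above its mean there, by less (80.3, 90.2 and 79.2 CPM), and is highest in KO + ITA replicate 2 (113 CPM). In WT and KO Mycbp2 is blue in the replicate 3 columns.

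Likeness to each member was measured over the 9 libraries among 10451 other genes of at least 1 CPM on average, as the root mean square difference between standardised profiles of log2(CPM + 1), where 0 means the same shape. No p belongs to it, and all genes share the libraries and their depth. The 4 genes most like Acod1 were Gprc5b, an orphan receptor (0.338), Ccr7, a chemokine receptor of migrating leukocytes (0.344), Bst1, an ectoenzyme also called CD157 (0.351), and Tnfsf4, which encodes the OX40 ligand (0.361). Kctd12 came 13th among these genes, at 0.473. Spry2 ranked 633 and Mycbp2 8485.

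Of these 4 only Bst1 was well covered. It stood at 266, 270 and 394 CPM in WT, 296, 263 and 378 in KO, and 288, 288 and 438 in KO + ITA, so the 3 libraries with high Acod1 did not overlap the others. Gprc5b had 5, 5 and 14 reads in WT, 9, 9 and 48 in KO and 11, 0 and 39 in KO + ITA, and its CPM was higher in the library with number 3 of each group. Ccr7 and Tnfsf4 also rested on few reads, from 8 to 25 and from 5 to 32. With a pseudocount of 5 the ranking still put Kctd12 near Acod1, at rank 12. By ranks of CPM none of the 4 genes was kept, and Kctd12 stood at rank 1952. That measure weighs the order among the 6 low libraries as much as the step between them and the high ones.

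The genes most like Kctd12 were Kbtbd2, an adaptor of CUL3 ubiquitin ligases (0.272), Bst1 (0.322), Mcub, a subunit that restrains the mitochondrial calcium uniporter (0.373), and Ccr7 (0.399), and Acod1 ranked 12. Bst1 and Ccr7 stand in both lists. The range of Kbtbd2 was narrow, from 24.9 to 34 CPM, which the standardised profile does not show. Those most like Mycbp2 were Baz1b, a chromatin remodelling subunit (0.219), Mdm4, an inhibitor of p53 (0.226), Golm1, a Golgi membrane protein (0.28), and Svil, which encodes supervillin (0.288). Baz1b stood at 557, 574 and 342 CPM in WT, 662, 600 and 380 in KO, and 279, 426 and 467 in KO + ITA, with replicates 1 and 2 of WT and KO again the 4 highest.

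**Figure D4:**
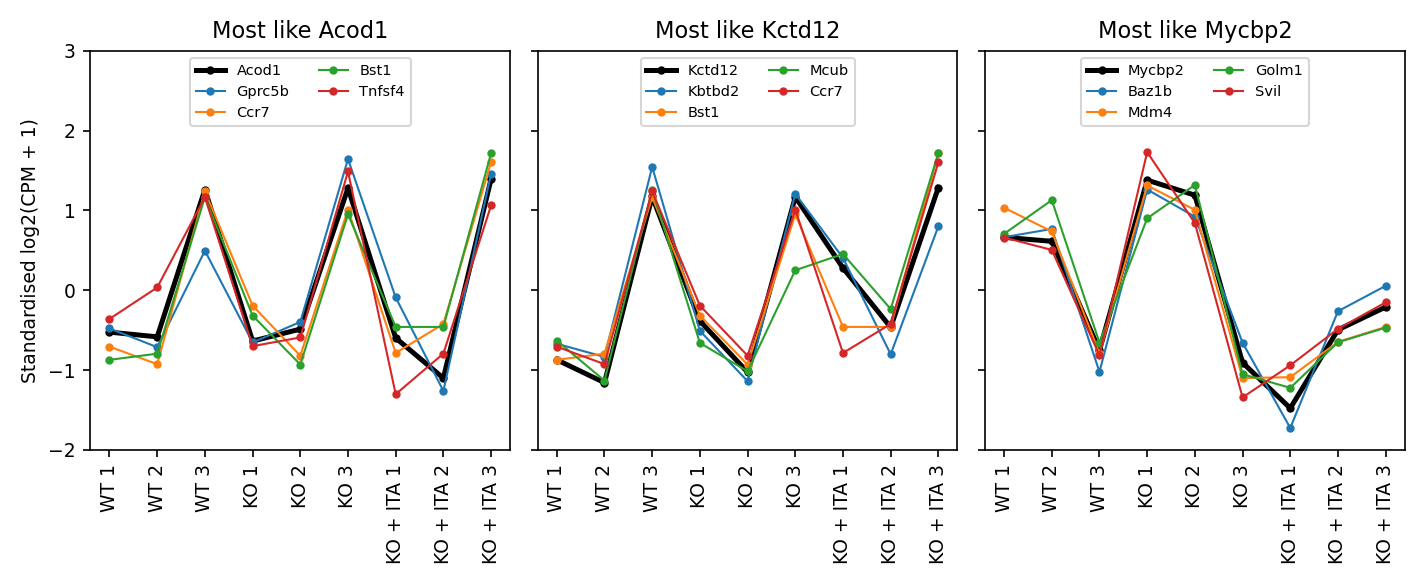
Standardised log2(CPM + 1) of each member (thick black line) and of the 4 genes most like it (thin lines) across the 9 libraries. Acod1 and Kctd12 and the genes like them peak at replicate 3 of each labelled group, and Mycbp2 and the genes like it peak at replicates 1 and 2 of WT and KO.

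The genes that surround itaconate in metabolism were described from a list of 21, of which 20 were tested. It holds the enzymes that supply cis-aconitate, the carriers of the inner mitochondrial membrane, succinate dehydrogenase, which itaconate inhibits, the enzymes that break itaconate down, and its transporters. No member was called in any comparison by edgeR or DESeq2, and 0, 2 and 3 had an unadjusted p under 0.05, where all genes gave 3.13%, 8.3% and 8.89%. In KO against WT 4 had a log2 fold change above 0 and 16 below, with a median of -0.09. The smallest p in that comparison belonged to Slc25a1, the citrate carrier (-0.53 ± 0.33), Cs, citrate synthase (-0.43 ± 0.28), which was lower without overlap, as were 5.76% of all tested genes, and Slc25a11, the oxoglutarate carrier (-0.49 ± 0.32). In KO + ITA against KO the smallest p belonged to Mut, methylmalonyl-CoA mutase, whose cofactor itaconyl-CoA damages (1.06 ± 0.33), and Clybl, citramalyl-CoA lyase of the breakdown route (-0.87 ± 0.36). In that comparison Mut alone was higher without overlap, beside 5.61% of all tested genes, and 3 members were lower without overlap (Suclg1, Clybl and Abcg2), beside 5.29%. Oxgr1, the gene of a receptor for itaconate, had 22 reads in KO + ITA replicate 3 and none elsewhere.

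The libraries were also described by other genes that LPS induces, 15 in all. No library without LPS is among the 9, so these levels have no baseline and cannot show whether a library responded. Saa3, an acute phase protein of activated macrophages, stood at 25000, 41500 and 38500 CPM in WT, 24800, 34500 and 37100 in KO and 35100, 32800 and 23600 in KO + ITA. Il1b, the interleukin-1β precursor, stood at 341, 445 and 576, at 373, 335 and 309, and at 338, 407 and 259 CPM. Neither separated the libraries by their Acod1 reads. Il1a, the interleukin-1α precursor, did so within each group, at 77.3, 47.4 and 176, at 39.8, 86.6 and 189, and at 85.2, 79.4 and 128 CPM, and Ptgs2, the inducible cyclooxygenase, did so too, at 37, 67.5 and 89.2, at 25.6, 48.5 and 176, and at 78.2, 114 and 316 CPM. Nos2, the inducible nitric oxide synthase, stood at 46.9, 41.5 and 105, at 112, 68.4 and 139, and at 35.3, 44.1 and 82 CPM, also with the library of number 3 highest in each group. Of the 15 genes, 5 had that library highest in every group (Il1a, Il6, Il12b, Nos2 and Ptgs2) and 10 did not, and of all tested genes 5.56% had it. None of the 15 was called by edgeR or DESeq2 in any comparison of labels, and 2, 3 and 3 had an unadjusted p under 0.05, beside 3.13%, 8.3% and 8.89% of all genes tested. Cxcl9, a chemokine induced by interferon-γ, had a log2 fold change of 0.83 ± 0.35 in KO against WT and of -1.43 ± 0.35 in KO + ITA against KO. Slc7a2, an arginine transporter gene, had 1.06 ± 0.45 in KO against WT, and Lcn2, which encodes the iron-scavenging lipocalin-2, had -0.73 ± 0.33 in KO + ITA against KO.

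Genes that act upstream of Acod1 formed a list of 18, all tested. They are the LPS receptor and its adaptors, interferon receptors and the transcription factors behind them. None was called by edgeR or DESeq2, with 0, 3 and 3 at an unadjusted p under 0.05 (3.13%, 8.3% and 8.89% of all genes) and median log2 fold changes of 0.09, 0.19 and 0.18, beside -0.01, -0.02 and -0.01 over all genes. Tlr4, the LPS receptor itself, stood at 29.8, 18.5 and 35.3 CPM in WT, 44.5, 20.5 and 32 in KO, and 33.9, 33.3 and 33.5 in KO + ITA. Irf1, an interferon regulatory factor, stood at 167, 84.6 and 128 CPM in WT, 72.2, 105 and 191 in KO, and 147, 166 and 293 in KO + ITA. The library with high Acod1 was highest for Irf1 in KO and KO + ITA, and not in WT. Cebpb, a transcription factor of inflammatory macrophages, stood at 526, 609 and 866 CPM in WT, at 342, 607 and 1750 in KO and at 1960, 1510 and 1990 in KO + ITA. Its log2 fold change in KO + ITA against WT was 1.45 ± 0.46. All WT libraries are from pool 1 and no KO + ITA library is. KO replicates 1 and 2, also from pool 1, had 342 and 607 CPM of Cebpb. KO replicate 3, from pool 2 and without itaconate, had 1750 CPM. What part the pool has in this difference was not tested. Of the 18 genes, Cebpb, Stat2 and Ifnar1 were higher in KO + ITA than in WT without overlap and Myd88 and Rela lower, beside 7.3% and 7.25% of all tested genes. For Rela the gap was smaller than the digits given, with 44.2 CPM in WT replicate 2 and in KO + ITA replicate 2. Myd88, the adaptor of Toll-like receptors, had -0.78 ± 0.34 and Stat2, an interferon signalling factor, 0.8 ± 0.36 in KO + ITA against KO. In KO against WT the smallest p belonged to Irf7 (-0.44 ± 0.31), Irf9 (0.54 ± 0.38) and Ifnar1 (0.37 ± 0.28), genes of interferon regulation and reception.

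Partners and relatives of MYCBP2 and KCTD12 made up a list of 13, of which 9 were tested. None was called by edgeR or DESeq2. In no comparison had any an unadjusted p under 0.05, beside 3.13%, 8.3% and 8.89% of all genes tested. Fbxo45, the F-box partner of MYCBP2, stood at 13.9, 19.8 and 9.63 CPM in WT, 10.2, 13.5 and 10.9 in KO and 13.3, 4.5 and 12.7 in KO + ITA. Mycbp, named for its binding to MYC, stood at 13.3, 16 and 14.2 CPM in WT, 14.9, 16.3 and 27.4 in KO and 14, 12.3 and 27.2 in KO + ITA, and so was highest in 2 of the 3 libraries with high Acod1. Cul3, the ubiquitin ligase scaffold that binds KCTD proteins, had a log2 fold change of 0.6 ± 0.38 in KO against WT, and Skp1a, the SKP1 adaptor, 0.27 ± 0.28. Kctd5 had 0.68 ± 0.33 in KO + ITA against KO, and Myc, the transcription factor gene, had at most 13 reads in a library. Gabbr1, a subunit of the GABA-B receptor that KCTD12 attaches to, had at most 16 reads in a library and did not pass the filter. Kctd8 and Kctd16, the other receptor-associated relatives in the list, had no read in any library.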

How the data were processed

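Messenger RNA of 9 macrophage libraries was captured with oligo-dT and copied with barcoded primers, then pooled, per the labels' protocols, so reads lie mostly near 3′ ends and do not scale with transcript length. The authors deposited raw read counts per gene. STAR, HTSeq and mm10 are named in the submitters' processing notes. Versions, annotation release and strand setting are not stated in the labels. The 5 summary lines of the counter stayed out of library sizes and tests (23.1% to 33.7% of all reads in the table had no gene, and 17.1% to 20.0% aligned to several places). Of 22165 identifiers, 21745 matched a symbol with the version ignored.

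All 9 libraries were fitted with group as the only term in edgeR 4.0.16 (R 4.3.3; TMM, filterByExpr with a minimum count of 10, 10781 genes, two-sided quasi-likelihood F test, Benjamini-Hochberg adjustment over all genes, threshold 0.05), checked on simulated data. Alternatives included DESeq2 1.42.0 and limma-voom (limma 3.58.1). The members, lists and tests were chosen with earlier results of these data known. Genes were named by rule: the members, the chromosome 14 list, the 4 genes most like each member, and in each other list the 3 smallest p in KO against WT and in KO + ITA against KO. The rule's reference genes Actb and Gapdh are not shown, and some genes that it names are not reported here. Other genes named (the markers, Saa3, Il1b, Il1a, Ptgs2, Tlr4, Irf1, Fbxo45, Il6, Il12b, Gabbr1, Oxgr1, the genes without overlap and the Kctd relatives) were chosen after their values were seen.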

Additional observations from a re-analysis of the deposited data

How the results depend on the processing

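The number of genes called was 0 in each comparison by edgeR on all 9 libraries (337, 895 and 958 genes had an unadjusted p under 0.05 in KO against WT, KO + ITA against KO and KO + ITA against WT) and by limma-voom. It was 1, 12 and 17 with DESeq2, 0, 80 and 92 without a filter on low counts, and 2, 217 and 1 without the 4 libraries whose Acod1 reads and labels conflict (WT replicates 1 and 2, KO and KO + ITA replicate 3), an alternative chosen after seeing the data. The only call in KO + ITA against WT and 1 of the 2 in KO against WT were then Acod1 itself, by which the libraries were chosen. With 1 library left out it ranged from 0 to 0, from 0 to 6 and from 0 to 4, where the 6 and the 4 came without KO + ITA replicate 1. Of the other members and list genes, Cxcl9 in KO + ITA against KO and Cebpb and Spry2 in KO + ITA against WT were called without a filter, and Cebpb, Cxcl9, Cxcl10, Uchl3 and Mycbp2 in KO + ITA against KO without the 4. The causes were not tested.

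With 1 library left out, the Acod1 log2 fold change ran from -7.07 to 7.18, from -8.24 to 7.72 and from -8.14 to 7.71 in the 3 comparisons, that of Kctd12 from -0.75 to 1.23, from -0.26 to 1.2 and from -0.14 to 1.55, and that of Mycbp2 from 0.07 to 0.66, from -1.23 to -0.65 and from -0.82 to -0.38. With the pool as a term Acod1 was -7.1 ± 2.27, -8.99 ± 3.54 and -16.09 ± 4.56 (SE). These Acod1 values rest on 1 high library in each of 2 pools, WT replicate 3 in pool 1 and KO replicate 3 in pool 2. In that fit Kctd12 was -0.88 ± 0.87 in KO + ITA against KO and -1.66 ± 1.05 in KO + ITA against WT. Mycbp2 was 0.28 ± 0.56 in KO + ITA against WT. Within pool 1 Acod1 was -7.07 ± 2.33 in KO against WT, again with WT replicate 3 as the only high library. Without the 4 libraries Acod1 was -8.66 in KO against WT and -9.73 in KO + ITA against WT, Kctd12 -1.82 and -1.21, and Mycbp2 1.29 in KO against WT. The choice of libraries fixed the signs of these Acod1 and Kctd12 values. No pool holds libraries of WT and KO + ITA, so the fit with the pool as a term links them through pools 1 and 2. CPM on all reads of the table, summary lines included, gave Mycbp2 means of 90.5, 108 and 54.1 in WT, KO and KO + ITA, by construction lower. By ranks of CPM 0 of the 4 genes most like Acod1, 1 of those most like Kctd12 and 2 of those most like Mycbp2 were kept.

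The replicate numbers of the titles are not stated to pair samples. Deviations of same-numbered libraries correlated from -0.159 to 0.245, so the replicate block is given as an alternative only, and it called 0, 0 and 0 genes. In that fit the 3 log2 fold changes were 0.06 ± 0.55, -0.51 ± 0.59 and -0.45 ± 0.58 for Acod1, 0.19 ± 0.29, 0.46 ± 0.29 and 0.65 ± 0.3 for Kctd12, and 0.28 ± 0.37, -0.76 ± 0.39 and -0.48 ± 0.38 for Mycbp2. Not every library correlated best with one of its own number. Of the 5342 other values recomputed for named genes, 271 moved by more than the SD between replicates.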

Other observations

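Over all 10781 tested genes, the 3 libraries with replicate number 3 were the 3 highest for 117 genes, Acod1, Kctd12 and Bst1 among them, and the 3 lowest for 180. For number 1 these counts were 85 and 77, and for number 2 they were 81 and 84.

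Genes of the Y chromosome were read in all 9 libraries. Ddx3y, an RNA helicase, stood at 87.1 to 106 CPM in WT, 101 to 144 in KO and 103 to 302 in KO + ITA, the highest in KO + ITA replicate 3. Eif2s3y, a translation initiation factor, stood at 28.6 to 54.6, 34.8 to 99 and 64.2 to 102 CPM. Kdm5d and Uty, a pair of histone demethylase genes, were also read in every library.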
